A study of Ramazzottius varieornatus and Hypsibius exemplaris with 16 samples.

Results

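Of the 6971 Hypsibius exemplaris targets (transcript models) that were shorter than 9000 bases and averaged at least 20 CPM in active whole animals, 165 had no count in any of 5 storage cell libraries, which is 2.37% of them. These 165 targets belong to 163 genes, out of 20853 targets of 19939 genes in all. They were chosen by the whole-body level and by the absence of counts in storage cells. The difference between the sample types is therefore given as a description, without a test, and nothing is supported with it. CPM is the estimated count divided by the sum of its library, times 1000000, and a target was taken as absent when its estimated count rounded to 0.

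Hypsibius exemplaris is a freshwater tardigrade, kept here as strain Z151 at 18 °C on agar with the alga Chlorella vulgaris as food. The 3 whole-body libraries come from active animals, labelled as active controls, and the 5 storage cell libraries from cells that left the body on dissection and were aspirated. The sample descriptions of the active animals carry the term Chlorella48h, which is not explained there. The labels give no age, sex or number of animals for either group. Whole animals were lysed in TRIzol and their RNA was purified, whereas storage cells went straight into the lysis buffer of the amplification kit, so effects of sample type and of preparation cannot be told apart.

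Storage cells are free cells that float in the tardigrade body cavity and are known for carrying reserves such as lipid and glycogen. A whole animal holds them together with epidermis, muscle, nerve, gut and gonad, so its RNA is a mixture in which each tissue counts according to its mass and RNA content. In such bulk samples, fewer cells of a type and less RNA per cell cannot be told apart. The files list targets by identifier only, with coding lengths, and the reference table used here covers the other species of the study, Ramazzottius varieornatus. It matched 0 of the H. exemplaris identifiers. The targets are therefore described by identifier, level, length, replicate pattern and gene number, with no function given to any of them, and the storage cell label could not be checked against marker genes.

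Totals of estimated counts were 5437134 to 5807509 for whole bodies, and 7680812 to 10343744 for storage cells. The storage cell libraries were thus deeper than the whole-body libraries that defined the level. On these totals, without the scaling for composition given below, a target of 20 CPM corresponds to 154 counts in the shallowest storage cell library. That scaling lowers this number. Together the 5 storage cell libraries held 43041542 counts, and the floor of 3 counts over the group that a count of 0 allows is 0.0697 CPM. Against that floor the 165 targets were at least 289-fold lower in storage cells for the lowest of them, at least 583-fold for the median and at least 8898-fold for the highest. With library sizes scaled by the trimmed mean of M-values (TMM), which allows for differences in composition, the same bounds were at least 105-fold, 215-fold and 3255-fold. The bounds follow from the whole-body level and the counts of 0 that the rule required, and the floor does not allow for that choice. They cover counting error only: copies made by PCR were not told apart from separate molecules.

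The 20 CPM limit itself depends on the scaling. TMM factors were 1.85 to 2.04 in whole bodies and 0.506 to 0.964 in storage cells, and on that scale only 85 targets met the rule, all of them among the 165. The members just inside the limit were BV898_09838.t01 with 20.2 CPM, BV898_11765.t01 with 20.4 CPM and BV898_15938.t01 with 20.4 CPM as means of the whole bodies. Just under it, and likewise without a storage cell count, lay BV898_02485.t02 with 19.8 CPM, BV898_06500.t01 with 19.8 CPM and BV898_16524.t01 with 19.6 CPM. The length limit kept out 2 targets that were absent from storage cells, BV898_09201.t01 of 9249 bases with 73.7 CPM and BV898_02959.t01 of 18495 bases with 26.6 CPM.

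Absence from all 5 libraries lay at the end of a range. Of the 6971 targets, 5482 (78.6%) were counted in every storage cell library, 570 were at 0 in 1 library, 292 in 2, 230 in 3 and 232 in 4. The 165 members were the smallest of these classes. Single libraries lacked between 353 targets (5.06%, replicate 3) and 1013 targets (14.5%, replicate 5). Replicates 1, 2 and 4 lacked 768 (11.0%), 525 (7.53%) and 938 (13.5%). In R. varieornatus, with the same rule and the same numbers of libraries, 31 of 6054 targets (0.512%) were absent from all storage cell libraries. That species was kept at 22 °C, its storage cell libraries held 8228370 to 11174369 counts and its files listed 14532 targets. Depth, annotation and temperature thus differ with the species, and the difference between the species was not tested.

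**Figure D1:**
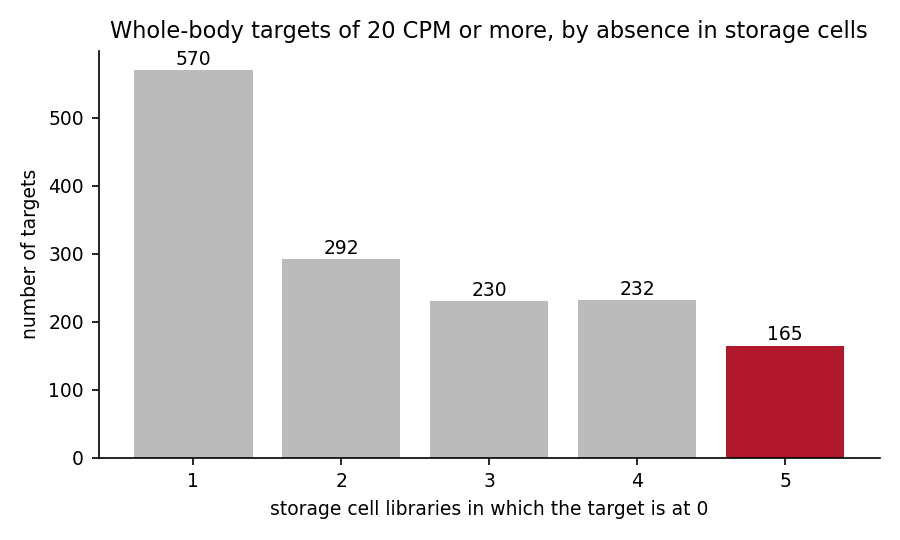
Number of H. exemplaris targets (under 9000 bases, whole-body mean of at least 20 CPM) by the number of storage cell libraries in which the rounded count was 0. The 165 members are the red bar at 5 libraries, and 5482 further targets were at 0 in none.

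The absence was then read in a library that had no part in the choice. Each storage cell library was set aside in turn, and the targets at 0 in the other 4 were looked up in it. With replicate 1 set aside, 165 of 178 such targets were also at 0 in it, or 92.7% (exact 95% interval 87.8 to 96.1). With replicate 4 the share was 93.75% of 176 (89.1 to 96.8), and with replicate 5 it was 95.4% of 173 (91.1 to 98.0). In these 3 libraries absence from the other 4 went with absence from the fifth for nearly all targets. With replicate 2 set aside the share was 78.2% of 211 (72.0 to 83.6). With replicate 3 set aside it was 51.7% of 319 (46.1 to 57.3). All 5 shares lay above those of the 6971 targets in the same library, which were 5.06% to 14.5%. Most of the 6971 were counted in every storage cell library, so this order was to be foreseen and nothing is concluded from it. The targets also at 0 in the library set aside are the same 165 each time. Each share therefore only reflects how long the list is without that library. The intervals cover counting error only, and targets are not independent replicates.

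**Figure D2:**
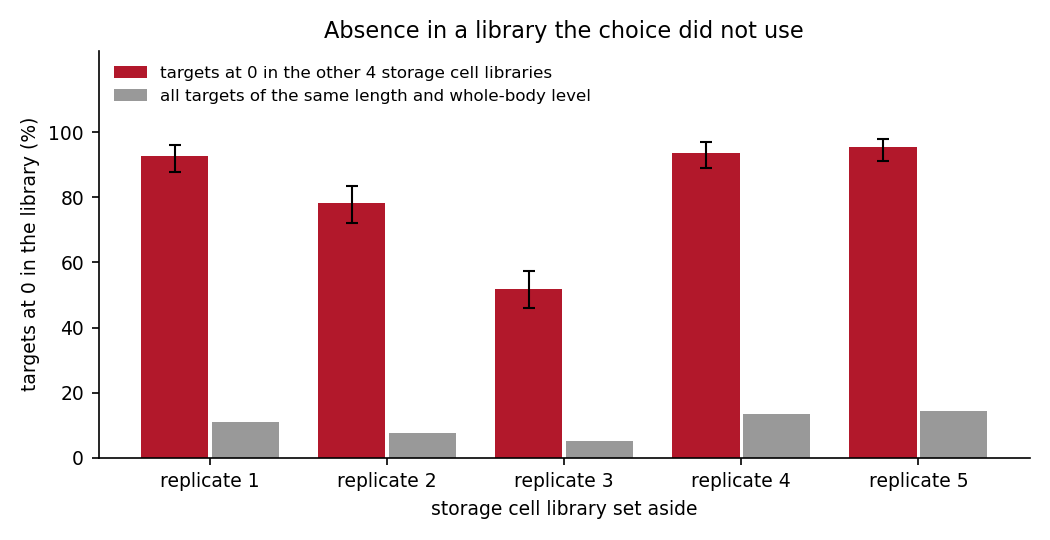
Share of targets (%) at 0 in a storage cell library that was set aside, for targets at 0 in the other 4 libraries (red, with exact 95% binomial intervals) and for all 6971 targets of the same length and whole-body level (grey). The red bars run from 51.7% in replicate 3 to 95.4% in replicate 5, and the grey bars from 5.06% to 14.5%.

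The few targets that failed only through 1 library were mostly barely present in it, except in replicate 3. Replicates 1, 4 and 5 each added 13, 11 and 8 such targets, with median counts of 1, 2 and 2. The highest counts among these targets were 51, 4 and 19 (6.67, 0.518 and 1.84 CPM). Replicate 2 added 46 targets with a median of 2 counts, of which 30 had 1 to 3 counts. The highest of the 46 had 173 counts (20.1 CPM). Replicate 3 stood apart. It held 154 targets that the other 4 lacked, with a median of 14 counts (1.62 CPM) and a highest level of 66.3 CPM. Without replicate 3 the list would therefore hold 319 targets in place of 165, so the length of the list depends on this library, as it does on the scaling and the limits. The 154 targets had a median whole-body level of 32.8 TPM (the deposited value per length, scaled to the same total in each library) and a median length of 1228.5 bases. For the 165 members these medians were 34.9 TPM and 1329 bases.

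The closest misses were targets of high whole-body level with 1 count in storage cells. BV898_08185.t01 had 659, 754 and 595 CPM in whole-body replicates 1, 2 and 3. BV898_15614.t01 had 479, 449 and 360 CPM, and BV898_16997.t01 had 340, 403 and 276 CPM. The storage cell count of each of the 3 targets was in replicate 1 (0.130 CPM), and the other 4 libraries were at 0. Allowing at most 1 count over the 5 libraries gave 216 targets, and allowing at most 3 gave 274.

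Per length, the members spanned from 3.08 to 1531 TPM in whole bodies, with a median of 34.9 TPM against 40.5 TPM for the 6806 other targets of the same length and CPM limits. Their median CPM was 40.7, against 60.3. The share of targets that were members was 3.84% at 20 to 40 CPM, 1.93% at 40 to 80, 1.75% at 80 to 160, 1.42% at 160 to 320 and 1.08% from 320 CPM. Members were thus found at every level and most often at the lowest one. All 165 together made up 1.23%, 1.28% and 0.999% of the counts of whole-body replicates 1, 2 and 3.

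Lengths ran from 306 to 6330 bases, and the median of 1329 bases compares with 1441.5 in the other targets. All were multiples of 3, as were 99.2% of the lengths of all H. exemplaris targets. Members made up 4.42% of the targets under 500 bases (15 of 339) and 1.84% to 2.72% of the longer classes. The shortest member, BV898_08164.t01, was among the 10 with the highest TPM. The longest, BV898_06883.t02, had 33.8, 21.5 and 28.4 CPM in the whole bodies.

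The member with the highest level per length was BV898_08182.t01 (471 bases), with 1926, 1549 and 1119 TPM in whole-body replicates 1, 2 and 3 (1531 ± 404, SD, n = 3). BV898_13158.t01 (564 bases) followed with 1280, 1456 and 1153 TPM (1296 ± 152, SD, n = 3). BV898_00016.t01 (768 bases) had 726, 1129 and 1179 TPM (1011 ± 248, SD, n = 3). The ranges of the first and second targets overlapped, as did those of BV898_13158.t01 and BV898_00016.t01, so the order of neighbours here is not larger than the spread between libraries. BV898_08169.t01 (552 bases) had 1129, 886 and 700 TPM. BV898_08183.t01 (477 bases) had 1063, 685 and 313 TPM, and BV898_08164.t01 (306 bases) had 682, 732 and 217 TPM. These 3 were each lowest in whole-body replicate 3.

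BV898_08153.t01 (468 bases) had 658, 472 and 336 TPM, and BV898_03888.t01 (495 bases) had 471, 469 and 416 TPM. BV898_11697.t01 (366 bases) had 705, 350 and 252 TPM, and BV898_14931.t01 (411 bases) had 525, 283 and 252 TPM. Of these 10 members, 9 were lowest in whole-body replicate 3 and 1, BV898_00016.t01, was lowest in replicate 1. All 10 were at most 768 bases long, and 5 of them have gene numbers between 8153 and 8183. By CPM, which is not per length, BV898_02645.t01 (1026 bases) also ranked among the first 5, with 378, 375 and 314 CPM.

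**Figure D3:**
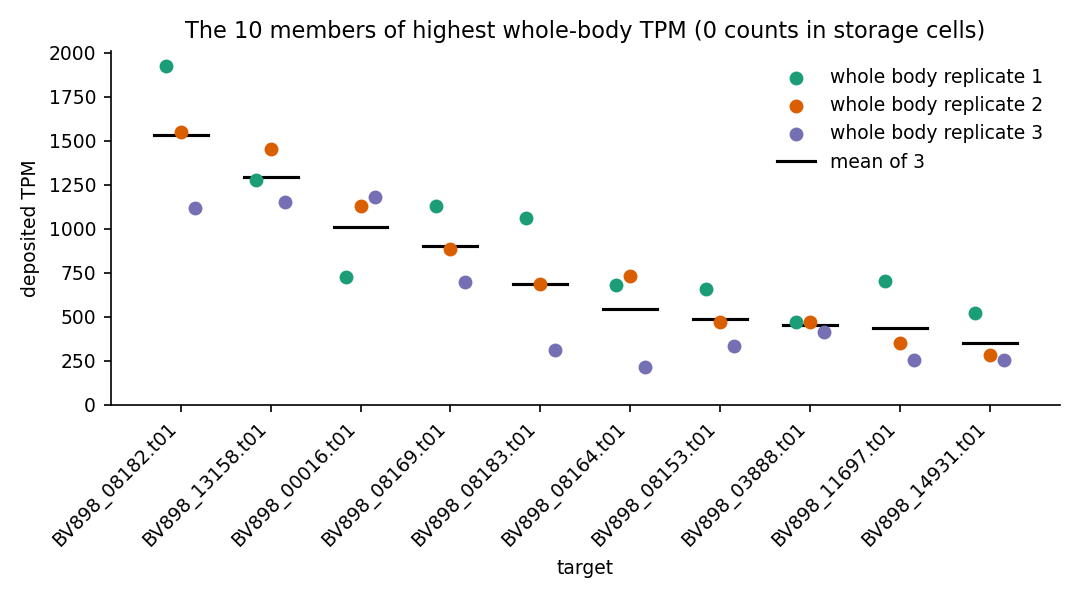
Deposited TPM in each of the 3 whole-body libraries (points) and their mean (line) for the 10 members with the highest mean TPM, all at 0 counts in the 5 storage cell libraries. The points of replicate 3 lie lowest in 9 of the 10, and neighbouring targets overlap.

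The members were more uneven between whole-body libraries than other targets, a description for which no test was made. The rule used only the mean of these 3 libraries, so the spread between them was not part of the choice. The ratio of the highest to the lowest CPM had a median of 1.77 over the members and 1.30 over the 6806 others. It exceeded 2 in 64 members (38.8%) and in 348 of the others (5.11%). The median ratio was 1.28 for targets at 0 in no storage cell library, 1.34, 1.42, 1.51 and 1.58 for those at 0 in 1, 2, 3 and 4, and 1.77 for the members. The median was thus larger at each step in the number of storage cell libraries that lacked the target.

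**Figure D4:**
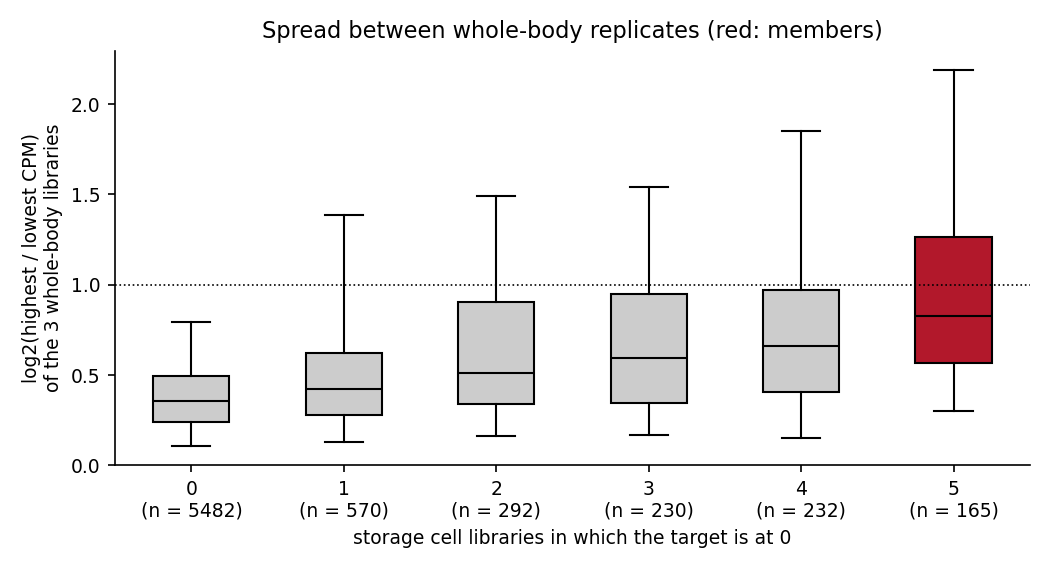
Log2 ratio of the highest to the lowest CPM among the 3 whole-body libraries, by the number of storage cell libraries in which the target is at 0 (boxes: quartiles and median; whiskers: 5th and 95th percentiles; dotted line: a ratio of 2). The median ratio rises from 1.28 at 0 libraries to 1.77 at 5 (red, members).

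The larger ratio was also seen among targets of like level. Within 20 to 40 CPM the median ratio was 1.68 in members and 1.34 in others, within 40 to 80 CPM 1.92 and 1.30, within 80 to 160 CPM 1.91 and 1.27, and within 160 to 320 CPM 1.88 and 1.26. From 320 CPM there were only 5 members, with 1.48 against 1.26. Non-whole estimated counts, which arise where reads are divided among similar targets, occurred in 40 members (24.2%) and in 14.7% of the others. In the 124 members with whole counts and a single target per gene the median ratio was 1.69, against 1.29 in 5795 others of that kind.

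Whole-body replicate 3 was the lowest of the 3 libraries for 103 members (62.4%), against 39.9% of the other targets. Replicate 1 was lowest for 50 members (30.3%) and replicate 2 for 12 (7.27%), against 39.0% and 21.2% of the others. The shares depended on length. Under 500 bases replicate 3 was lowest for 73.3% of members and 13.0% of others, and at 500 to 1000 for 52.6% and 19.8%. At 1000 to 2000 bases the shares were 64.3% and 42.3%, and from 4000 bases 81.8% and 44.8%. At 2000 to 4000 bases members did not exceed the others (58.1% and 59.0%). The median member was at a log2 ratio of -0.41 in replicate 3 relative to the mean of replicates 1 and 2, and the median of the others was at -0.08. On the TMM scale replicate 3 was lowest for 58.2% of members and 30.7% of the others. The spread did not rest on replicate 3 alone. Between replicates 1 and 2 the median ratio was 1.35 in members and 1.19 in others, between 1 and 3 it was 1.56 and 1.16, and between 2 and 3 it was 1.41 and 1.17. The labels give no batch or date for these libraries.

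The most even member was BV898_03888.t01, with 132, 136 and 128 CPM. BV898_09006.t01 had 28.4, 31.4 and 28.9 CPM, and BV898_03363.t01 had 28.4, 32.3 and 31.6 CPM. At the other end, BV898_07386.t01 (2394 bases, whole counts) had 114, 23.7 and 5.89 CPM in replicates 1, 2 and 3. The other two least even members, BV898_02037.t02 and BV898_09160.t02, rounded to 0 counts in whole-body replicate 3 and had 50.3 and 20.7 CPM, and 30.2 and 34.3 CPM, in replicates 1 and 2. Both are second targets of their gene with non-whole counts, so their level depends on how reads were divided.

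The whole-body level was also read in a library that had no part in the choice. Replicates 1 and 2 alone gave 177 targets absent from storage cells, of which 126 reached 20 CPM in replicate 3 and 160 reached 10 CPM. Replicates 2 and 3 gave 152, of which 138 reached 20 CPM in replicate 1. Replicates 1 and 3 gave 162, of which 144 reached 20 CPM in replicate 2. The same shares were not computed over all targets chosen by 2 whole-body libraries. Whether these shares are particular to targets absent from storage cells was therefore not tested.

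Members were also found close to each other by gene number. Numbers in the identifiers are used here as names, since no positions were available. The longest run of consecutive numbers was BV898_08182.t01, BV898_08183.t01 and BV898_08184.t01, the only run of 3; BV898_08184.t01 had 24.1, 20.9 and 19.7 CPM in whole bodies. In all, 18 members of 8 runs had a member of another gene at the next number. Among the 115 targets over the limits that lie 1 number from a member, 15.7% were members themselves, against 2.37% of all. The share was 12.1% at 2 numbers, 5.22% at 5, 7.08% at 10 and 1.98% at 50.

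The longest chain, with gaps of at most 15 numbers, ran from 8153 to 8194 and held 7 members among 23 targets over the limits (30.4%). Its bounds were set after the values had been seen. Within it, 12 targets reached 400 TPM in whole bodies, all of them short (306 to 669 bases). Over all numbers, 396 targets within the limits on length and CPM reached 400 TPM, and 9 of those (2.27%) were members. Of the 12 in this stretch, whose ends are members by construction, 5 were members, BV898_08153.t01, BV898_08164.t01, BV898_08169.t01, BV898_08182.t01 and BV898_08183.t01. The other 7 had storage cell counts that were low in 4 of the libraries, at most 2.13 CPM outside replicate 3.

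In replicate 3 the 7 other short targets diverged. BV898_08166.t01 had 692 CPM there and 0.777 to 2.13 CPM in the other 4 storage cell libraries, with 631, 577 and 614 CPM in whole bodies. BV898_08168.t01 had 249 CPM in replicate 3 and 0.259 to 1.04 CPM in the others, with 238, 414 and 205 CPM in whole bodies. BV898_08167.t01 and BV898_08191.t01 had 6.22 and 7.16 CPM in replicate 3. In this library, then, BV898_08166.t01 and BV898_08168.t01 lay at or above the level of at least 1 whole body while the 5 members a few numbers away had no count. BV898_08161.t01 and BV898_08185.t01 had 1 count each, in replicate 1, and BV898_08163.t01 was below 2 CPM in all 5.

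Of the 11 targets over the limits with less than 400 TPM in the same stretch of numbers, 2 were members (BV898_08184.t01 and BV898_08194.t01), 3 were at 0 in some storage cell libraries and 6 were counted in all 5. The storage cell values of these 6 ranged from well below the whole-body values to near or above them. BV898_08160.t01 had 52.2, 83.4, 63.6, 30.0 and 72.7 CPM in storage cell replicates 1 to 5, against 141, 151 and 160 CPM in whole bodies. BV898_08178.t01 had 47.9, 58.8, 28.9, 16.1 and 27.7 CPM, against 240, 263 and 236 CPM in whole bodies. BV898_08173.t01 had 80.1, 219, 166, 69.0 and 228 CPM, against 84.9, 127 and 95.6 CPM in whole bodies.

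**Figure D5:**
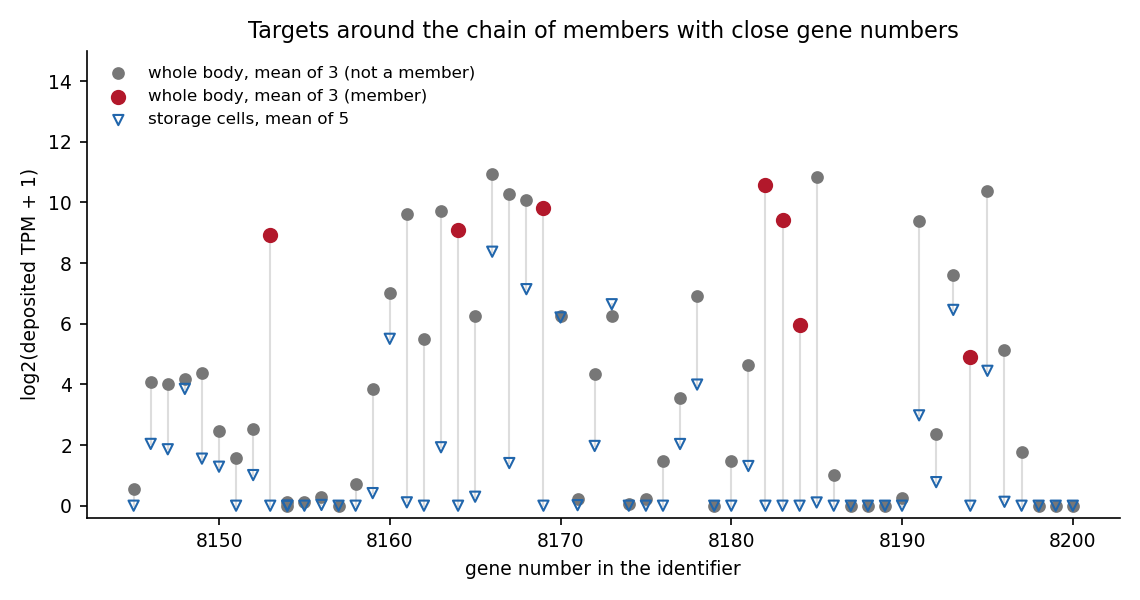
Deposited TPM, as log2(TPM + 1), of each target by the gene number in its identifier, from 8145 to 8200: whole-body mean of 3 libraries (red for the members, grey for others) and storage cell mean of 5 (blue triangles), joined by a line. The members stand far above their storage cell value of 0; numbers 8166 and 8168, which were high in storage cell replicate 3, are nearer to theirs, and number 8173 has similar values in both.

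Other members with close gene numbers are given here for their whole-body values. BV898_17762.t01 had 98.8, 57.4 and 30.5 CPM in whole-body replicates 1, 2 and 3. BV898_17766.t01 had 87.4, 31.5 and 18.4 CPM, and BV898_17767.t01 had 141, 79.2 and 64.2 CPM. All 3 (1698 to 1827 bases) were highest in replicate 1 and lowest in replicate 3. BV898_18009.t01 had 54.5, 31.9 and 25.6 CPM, and BV898_18011.t01 had 55.9, 26.9 and 20.8 CPM, in the same order of libraries. Their neighbours BV898_18013.t01 and BV898_18014.t01 were highest in replicate 2, with 32.5, 37.3 and 28.1 CPM and with 74.6, 90.6 and 53.0 CPM. Over all members, 45.5% were highest in replicate 2, 41.8% were highest in replicate 1 and 62.4% were lowest in replicate 3. For the other targets within the limits these shares were 48.8%, 27.8% and 39.9%. The 2 groups of close gene numbers were chosen after their values had been seen. Whether their members share a pattern beyond the rates over all members was not tested.

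Of the 6806 other targets within the limits, 6.80% belong to a gene with several targets. For 18 members (10.9%), from 16 genes, the gene has a second target. In 2 of the genes, BV898_02037 and BV898_11698, both targets were members. In another 2 genes the second target was at 0 in storage cells but under 20 CPM. In the remaining 12 genes the second target had counts in storage cells. In 11 of these it had more than 3 counts over the 5 libraries, so the gene was not absent from all 5. In the other, BV898_15614, it had 1 count. In BV898_01136 and BV898_15873 the second target was counted in storage cell replicate 3 alone, so these genes were at 0 in the other 4 libraries. With counts summed per gene, 152 genes met the rule, and 151 of them were genes of members.

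Among the 6 such members with the highest TPM, BV898_15873.t01 had 74.0, 99.6 and 132 CPM in whole bodies. Its partner BV898_15873.t02 was at 0 in the whole bodies and had 6 counts in storage cell replicate 3 (0.693 CPM). BV898_06702.t01 had 51.0, 71.0 and 36.7 CPM, and BV898_06702.t02 had 10.9 CPM in storage cell replicate 3 and at most 1.04 CPM in the others. BV898_01136.t02 had 24.7, 37.2 and 60.1 CPM, and its partner BV898_01136.t01 was counted in storage cell replicate 3 alone, at 15.9 CPM. In these 3 genes the partner's storage cell reads were all or mostly in replicate 3.

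BV898_15614.t02 (3954 bases) had 158, 189 and 180 CPM in whole bodies. Its partner BV898_15614.t01 had 1 count in storage cells, so the gene as a whole was left with 1 storage cell count. BV898_02037.t01 had 97.3, 202 and 172 CPM, and BV898_12762.t01 had 29.2, 42.2 and 29.5 CPM, with partners that were also at 0 in storage cells. For targets of 1 gene the estimated count of 0 depends on how reads common to both were assigned. Before rounding, 7 members had a storage cell estimate above 0, of at most 0.0705 counts.

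The targets most like BV898_08182.t01 over the 8 libraries were found by Euclidean distance on log2(CPM + 1). They were BV898_15614.t01 at a distance of 0.32, BV898_02645.t01 at 0.38 and BV898_08169.t01 at 0.46. Since 5 of the 8 libraries are those in which the rule fixed BV898_08182.t01 at 0, targets near it must be at or near 0 there too, and nothing is read from their membership.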

How the data were processed

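RNA-seq tables of 3 active whole-body and 5 storage cell libraries of H. exemplaris were used, with the same numbers of R. varieornatus libraries for 1 count. The authors deposited 1 table per library with estimated counts (not normalized) and TPM values (per effective length), per the file headers. Per the submitters' processing notes, kallisto 0.46.1 and bcl2fastq 2 were used. The annotation and the read filters are not given in the sources used. Groups and replicate numbers come from the titles. Whether replicates were separate cultures is not stated beyond their label as biological replicates.

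Counts were rounded only to decide absence. CPM used column sums; TMM factors came from edgeR 4.0.16 (R 4.3.3) after filterByExpr. No low-value filter was applied beyond the rule, and no test was run, since the rule uses the contrast. A count was called non-whole when further than 1e-06 from a whole number. The shares at 0 in a storage cell library set aside carry exact (Clopper-Pearson) 95% intervals, and the other shares carry none. Members and lists were chosen with earlier results of these data known. Targets were named by a fixed rule: the 10 highest by TPM, the 5 highest by CPM, the 3 most and least even, the shortest and longest, those nearest the limits, up to 6 with a second target, the longest run, and the 3 nearest in pattern; others are marked as chosen after their values were seen, as are the partners and neighbours in the stretch of numbers. Only the rule that picks the members, and the step that reduces a library to a lower depth, were checked on simulated counts. In those counts the planted targets meet the rule by construction. Python 3.11.15, numpy 2.4.6, pandas 2.3.3 and scipy 1.17.1 were used.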

Additional observations from a re-analysis of the deposited data

Results flagged for a closer look

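Each set of 5 storage cell values was screened for a library far from the rest, in 18 sets. Chance alone picks out about 1 in 20 sets that were not chosen by their values. That rate does not apply to BV898_08185.t01, BV898_15614.t01 and BV898_16997.t01, which were chosen for having 1 count and so stand apart by construction. Nor does it apply to the targets of the stretch from 8153 to 8194, whose bounds were set after the values had been seen. Among these, BV898_08161.t01 also had 1 count and stands apart in the same way. The screen picked out 13, which are not independent, since all of them rest on replicate 3 or on a single count in replicate 1.

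Storage cell replicate 3 held 154 targets that the other 4 libraries lacked, against 8 to 46 in the others, and their median count was 14, against 1 to 2. It was also the library with high values of BV898_08166.t01 (692 CPM against at most 2.13), BV898_08168.t01 (249 CPM against at most 1.04), BV898_08167.t01 (6.22 CPM against at most 0.130) and BV898_08191.t01 (7.16 CPM against 0). The second targets BV898_01136.t01 (15.9 CPM against 0), BV898_06702.t02 (10.9 CPM against at most 1.04) and BV898_15873.t02 (0.693 CPM against 0) stood out in the same library.

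Replicate 1 held the only count of BV898_08161.t01, BV898_08185.t01, BV898_15614.t01 and BV898_16997.t01, each at 0.130 CPM, which is within counting error of 0.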

How the results depend on the processing

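The list of 165 grew to 263 targets with a limit of 10 CPM and to 274 with at most 3 storage cell counts, and shrank to 67 with a limit of 50 CPM and to 85 on the TMM scale. Leaving out 1 library gave 152 to 319 targets, the highest without storage cell replicate 3. The median level of 34.9 TPM became 85.5 TPM at the 50 CPM limit and 71.5 TPM on the TMM scale. With at most 1 count allowed in the library set aside, the shares for replicates 1 and 2 became 97.2% and 88.2%, and at the 50 CPM limit the share for replicate 4 became 88.2%. The median whole-body ratio was 1.35 to 1.56 with 1 whole-body library left out, when it compares a pair of libraries only; it was 1.16 to 1.19 in the other targets. The 18 members beside another member became 30 with gaps of up to 3 numbers, 39 with a limit of 10 CPM or with at most 3 storage cell counts, and 19 to 44 with 1 storage cell library left out, the highest without replicate 3. A limit of 20 TPM in place of 20 CPM gave 174 targets, of which only 110 were among the 165. The alternative without divided reads was added after seeing the data. The other settings left values within 1.5 times for counts, or within their spread. Depth limits absence to less than about 0.0697 CPM over the group. No paired analysis was possible because the results come from no test, so that there is no fit to which a replicate block could be added.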
